A study of Mus musculus with 16 samples.

Results

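Group 2 innate lymphoid cells (ILC2) of the mouse duodenum were compared between libraries whose mice carried the Yarg reporter at the Arg1 gene and libraries whose mice did not, within the only set of sample codes (TS) that held both kinds. The members were chosen by genotype label and sample code alone: 4 carrier libraries and 4 non-carrier libraries, 8 of the 16 in the series. The non-carriers were 2 wild-type libraries (WT; Wild type B6; Il13 smart13/smart13) and 2 Alox5 KO libraries (Alox5 (-/-); Il13 smart13/smart13). The carriers were 2 Il25 KO libraries (Il25 (-/-);Arg1Yarg/Yarg;Il13 smart13/smart13) and 2 St2 KO libraries (St2 (-/-);Arg1Yarg/Yarg;Il13 smart13/smart13). All 4 genotypes were thus homozygous for the Smart13 reporter at Il13, and both carrier genotypes were homozygous for Yarg and also lacked a cytokine or its receptor. No genotype carried Yarg without a deletion, so a change that comes with the reporter allele and a change that both deletions produce cannot be told apart. Mice were C57BL/6, 6 to 10 weeks old, untreated and free of specific pathogens, and cells were sorted from the first 5 cm of the small intestine. Whether the libraries come from separate mice is not in the labels, and the p-values therefore describe library-to-library spread, which may be technical.

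Arginase 1, the product of Arg1, splits arginine into ornithine and urea, and ornithine feeds the synthesis of polyamines and proline. Resting ILC2 express it constitutively, which is why a yellow fluorescent protein placed at the locus (Yarg) marks them. ILC2 respond to IL-25, a cytokine of epithelial tuft cells, and to IL-33, whose receptor ST2 is encoded by Il1rl1, by making type 2 cytokines such as IL-5 and IL-13. Alox5 encodes 5-lipoxygenase, the first enzyme of leukotriene synthesis.

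The 8 libraries held 2511731 to 3216937 gene counts (median 2659536), and 11958 genes passed the filter on low counts. Libraries of the same genotype differed beyond sampling noise (chi-square per degree of freedom 6.15 to 9.66). ILC2 genes were high in all 8: Il7r stood at 979 to 1265 CPM (CPM being depth-scaled counts) and Il17rb, the IL-25 receptor subunit, at 857 to 946 CPM. Alox5 stood at 4.74 and 12.2 CPM in the Alox5 KO libraries and at 76.0 to 186 CPM in the other 6. Il25 had 0 counts in all 8 libraries, so it checks no label. Il1rl1 stood at 197 and 157 CPM in the libraries labelled St2 KO, inside the range of the non-carriers (150 to 303 CPM). The labels do not give the deleted part of Il1rl1, so a whole-gene count does not check that label. The summed level of B cell and plasma cell transcripts differed between libraries, at 995 and 1108 CPM in Alox5 KO 1 and 2 and 1043 CPM in St2 KO 1 against 2207 to 3137 CPM in the other 5.

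Between carriers and non-carriers, Arg1 fell, and some of the other transcripts that changed lie on the chromosome of Arg1. In the edgeR quasi-likelihood model with the 4 genotypes as terms, 19 of 11958 genes passed an adjusted p of 0.05 (0.159% of all genes tested), 6 higher in carriers (0.0502%) and 13 lower (0.109%). A called gene was counted as shared when the 4 carrier libraries did not overlap the 4 non-carrier libraries and each of the 4 pairs of a carrier with a non-carrier genotype moved the same way by at least 0.5 times the averaged log2 fold change. By this rule 9 genes were shared (0.0753% of all genes tested). The counts depend on the tool and the libraries: DESeq2 called 67 genes, 29 of them shared, and a fit of all 16 libraries with the sample code as a term called 34. In that fit the contrast between sides still rests on TS, because each other code holds 1 side only. Of the 9 shared genes, the 5 higher in carriers were Tmem87a, AA467197, Pcna-ps2, Adat2 and Cd44. The 4 lower were Arg1, Gm26740, Ndufa4 and Hmgb1-ps8. The rule leaves out genes that differ much within a side, so likeness within a side is no finding for these 9. The counts also rest on having all 8 libraries. The number called was 4 without WT 1, 3 without WT 2, 8 without Alox5 KO 1, 3 without Alox5 KO 2, 8 without Il25 KO 1, 6 without St2 KO 1 and 6 without St2 KO 2, and 19 without Il25 KO 2. In the same order the number shared was 3, 3, 5, 3, 5, 4, 4 and 11. Only Arg1 was called without Alox5 KO 1, Alox5 KO 2 and St2 KO 1, the 3 libraries low in plasma cell transcripts, a choice made after seeing the data that also leaves 5 libraries in the fit.

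Arg1 (ENSMUSG00000019987, chromosome 10, 24915221 to 24927484, GRCm38) was the strongest difference. It stood at 389 and 311 CPM in WT, 452 and 365 CPM in Alox5 KO, 24.5 and 16.5 CPM in Il25 KO and 23.2 and 12.5 CPM in St2 KO. The sides were far apart, and the 2 genotypes of each side overlapped. The log2 fold change was -4.30 ± 0.181 (SE; adjusted p = 4.27e-06), and with each library left out in turn it stayed between -4.56 and -4.11, with adjusted p between 2.79e-05 and 0.000234. The counts cover the whole gene and none of the reporter's own sequence was counted separately, so the level of the reporter transcript was not measured.

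Tmem87a (ENSMUSG00000033808, chromosome 2, 120355312 to 120404113), which encodes a membrane protein of the Golgi, rose in carriers. Its level was 57.2 and 42.8 CPM in WT, 58.1 and 49.6 CPM in Alox5 KO, 187 and 189 CPM in Il25 KO and 144 and 174 CPM in St2 KO, and the sides were wholly apart. The log2 fold change was 1.74 ± 0.133 (adjusted p = 0.000741; 0.00287 to 0.00893 with 1 library left out). AA467197 (ENSMUSG00000033213, chromosome 2, 122636986 to 122641191) is the mouse counterpart of human C15ORF48, a small mitochondrial protein related to the respiratory chain subunit NDUFA4, and its transcript also carries the microRNA Mir147. It rose from 8.94 and 5.01 CPM in WT and 5.14 and 14.96 CPM in Alox5 KO to 95.9 and 91.5 CPM in Il25 KO and 54.9 and 60.3 CPM in St2 KO. The log2 fold change was 3.13 ± 0.271 (adjusted p = 0.00167; 0.00389 to 0.0232 with 1 library left out). Adat2 (ENSMUSG00000019808, chromosome 10, 13552894 to 13563376), the catalytic subunit of an enzyme that turns adenosine into inosine in transfer RNAs, rose from 8.94 and 15.04 CPM in WT and 17.8 and 11.8 CPM in Alox5 KO. It reached 50.1 and 55.7 CPM in Il25 KO and 57.6 and 57.0 CPM in St2 KO, with a log2 fold change of 2.04 ± 0.234 (adjusted p = 0.0106). Adat2 was no longer called without WT 1, WT 2, Alox5 KO 2, St2 KO 1 or St2 KO 2 (adjusted p up to 0.0874). Tmem87a overlaps the gene Ganc, and Adat2 overlaps Pex3, and without strand information reads in such overlaps cannot be told apart.

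The promoters of these 3 genes are shown as examples of shared genes whose transcripts rose in both carrier genotypes. RefSeq (GRCm38.p6) gives promoter windows, 250 bases before to 50 after the start, for 6 of the 9 shared genes, and capitals mark matches on either strand to the motifs searched, of which no 2 overlap in these windows.
Tmem87a promoter, chr2:120404067-120404366, minus strand: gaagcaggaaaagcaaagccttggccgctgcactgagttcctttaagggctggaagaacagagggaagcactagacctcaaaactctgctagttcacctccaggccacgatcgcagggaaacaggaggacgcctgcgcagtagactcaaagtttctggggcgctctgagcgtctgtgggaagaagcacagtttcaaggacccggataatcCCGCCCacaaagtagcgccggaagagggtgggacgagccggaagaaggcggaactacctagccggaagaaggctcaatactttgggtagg
AA467197 promoter, chr2:122637637-122637936, plus strand: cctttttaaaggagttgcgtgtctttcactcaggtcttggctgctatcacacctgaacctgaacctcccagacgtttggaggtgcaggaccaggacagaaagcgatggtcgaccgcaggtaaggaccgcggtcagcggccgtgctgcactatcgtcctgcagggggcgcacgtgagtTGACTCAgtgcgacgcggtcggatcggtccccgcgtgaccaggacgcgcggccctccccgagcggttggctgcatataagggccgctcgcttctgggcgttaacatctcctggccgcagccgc
Adat2 promoter, chr10:13552657-13552956, plus strand: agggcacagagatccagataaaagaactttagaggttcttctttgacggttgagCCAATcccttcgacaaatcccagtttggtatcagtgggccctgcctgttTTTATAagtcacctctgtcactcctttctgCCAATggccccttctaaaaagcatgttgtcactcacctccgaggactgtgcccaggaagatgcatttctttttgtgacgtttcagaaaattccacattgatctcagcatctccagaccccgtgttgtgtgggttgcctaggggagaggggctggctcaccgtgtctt
The searches were for GGGCGG (GC box, in 35.7% of 32851 promoter windows), CCAAT (37.4%), TATAAA (13.6%), TGANTCA (AP-1 site, 7.8%) and the STAT palindrome (7.0%). Tmem87a held 1 GC box, AA467197 held 1 AP-1 site 73 bases before the start (-73), and Adat2 held 2 CCAAT boxes and 1 TATA box. No motif was common to the 3 windows. The window of Cd44, which also rose but is not shown, held 1 GC box match, as did that of Tmem87a, and 1 STAT palindrome match. The GC box match of Cd44 lies after the start (at 3). The RefSeq start of AA467197 lies 901 bases inside the start of the gene as GENCODE gives it.

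Pcna-ps2 (ENSMUSG00000067608, chromosome 19, 9283380 to 9284160), a processed pseudogene of the DNA polymerase clamp gene Pcna, was near absent from non-carriers. It stood at 0.39 and 0.77 CPM in WT and 1.58 and 1.57 CPM in Alox5 KO, and at 20.2 and 15.4 CPM in Il25 KO and 12.5 and 12.2 CPM in St2 KO. The log2 fold change was 3.88 ± 0.488 (adjusted p = 0.00892), and the call was lost when any 1 of the 4 non-carrier libraries was left out (adjusted p up to 0.103). Hmgb1-ps8 (ENSMUSG00000097295, chromosome 10, 22262742 to 22263367), a processed pseudogene of the chromatin protein gene Hmgb1, moved the other way. It had 38 and 35 counts in WT, 34 and 33 in Alox5 KO, 0 and 0 in Il25 KO, and 1 and 0 in St2 KO. The ratio of the depth-scaled counts was 159, with a 95% counting interval of 28.1 to 6326 that covers counting error only, and the adjusted p of 0.0288 passed the threshold in only 1 of the 8 fits that left out a library, that without Il25 KO 2. Stretches of 100 bases are shown beside the parent transcripts, with the differing bases in capitals, because reads of a pseudogene can be told from those of its parent only where the sequences differ.
Hmgb1-ps8, bases 521 to 620: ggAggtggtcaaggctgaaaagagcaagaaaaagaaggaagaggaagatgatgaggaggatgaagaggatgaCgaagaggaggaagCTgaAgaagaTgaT
Hmgb1 transcript, aligned stretch: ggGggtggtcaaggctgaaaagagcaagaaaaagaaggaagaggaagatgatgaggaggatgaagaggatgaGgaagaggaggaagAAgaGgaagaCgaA
Pcna-ps2, bases 77 to 176: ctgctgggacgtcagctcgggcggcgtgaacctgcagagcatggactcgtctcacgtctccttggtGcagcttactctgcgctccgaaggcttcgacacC
Pcna transcript, aligned stretch: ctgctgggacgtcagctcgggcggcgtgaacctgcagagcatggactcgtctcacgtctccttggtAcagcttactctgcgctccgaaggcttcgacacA
Hmgb1-ps8 was 95.8% identical to its parent over 623 aligned columns, with 22 differing bases, and Pcna-ps2 was 99.2% identical over 781 columns, with 6. How the authors' counting split reads between such copies was not given, so both levels are uncertain. The parents were not called: Hmgb1 had a log2 fold change of -0.23 ± 0.173 (adjusted p = 0.710) and Pcna of -0.28 ± 0.171 (adjusted p = 0.664).

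Of the remaining shared genes, Ndufa4 (ENSMUSG00000029632, chromosome 6, 11900292 to 11907497), which encodes a subunit of cytochrome c oxidase, fell in carriers while its relative AA467197 rose. Ndufa4 stood between 133 and 137 CPM in all 4 non-carriers, at 80.8 and 68.4 CPM in Il25 KO and at 81.5 and 67.9 CPM in St2 KO, with a log2 fold change of -0.86 ± 0.117 (adjusted p = 0.0227). The 2 carrier genotypes overlapped (log2 fold change of Il25 KO minus St2 KO 0.0046, adjusted p = 0.998). Gm26740 (ENSMUSG00000097705, chromosome 10, 22187013 to 22302835), annotated as an antisense RNA, stood at 134 and 113 CPM in WT, 111 and 91.3 CPM in Alox5 KO, 46.2 and 58.8 CPM in Il25 KO and 50.8 and 46.9 CPM in St2 KO (log2 fold change -1.15 ± 0.146, adjusted p = 0.0147). Cd44 (ENSMUSG00000005087, chromosome 2, 102811141 to 102901665), the receptor for the matrix component hyaluronan, was the smallest change, from 149, 186, 133 and 134 CPM in the non-carriers to 212 and 244 CPM in Il25 KO and 266 and 235 CPM in St2 KO (log2 fold change 0.67 ± 0.105, adjusted p = 0.0456). Ndufa4 and Cd44 lost their calls whichever library was left out, with adjusted p up to 0.160 and 0.287, and Gm26740 kept its call only without Il25 KO 2.

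**Figure D1:**
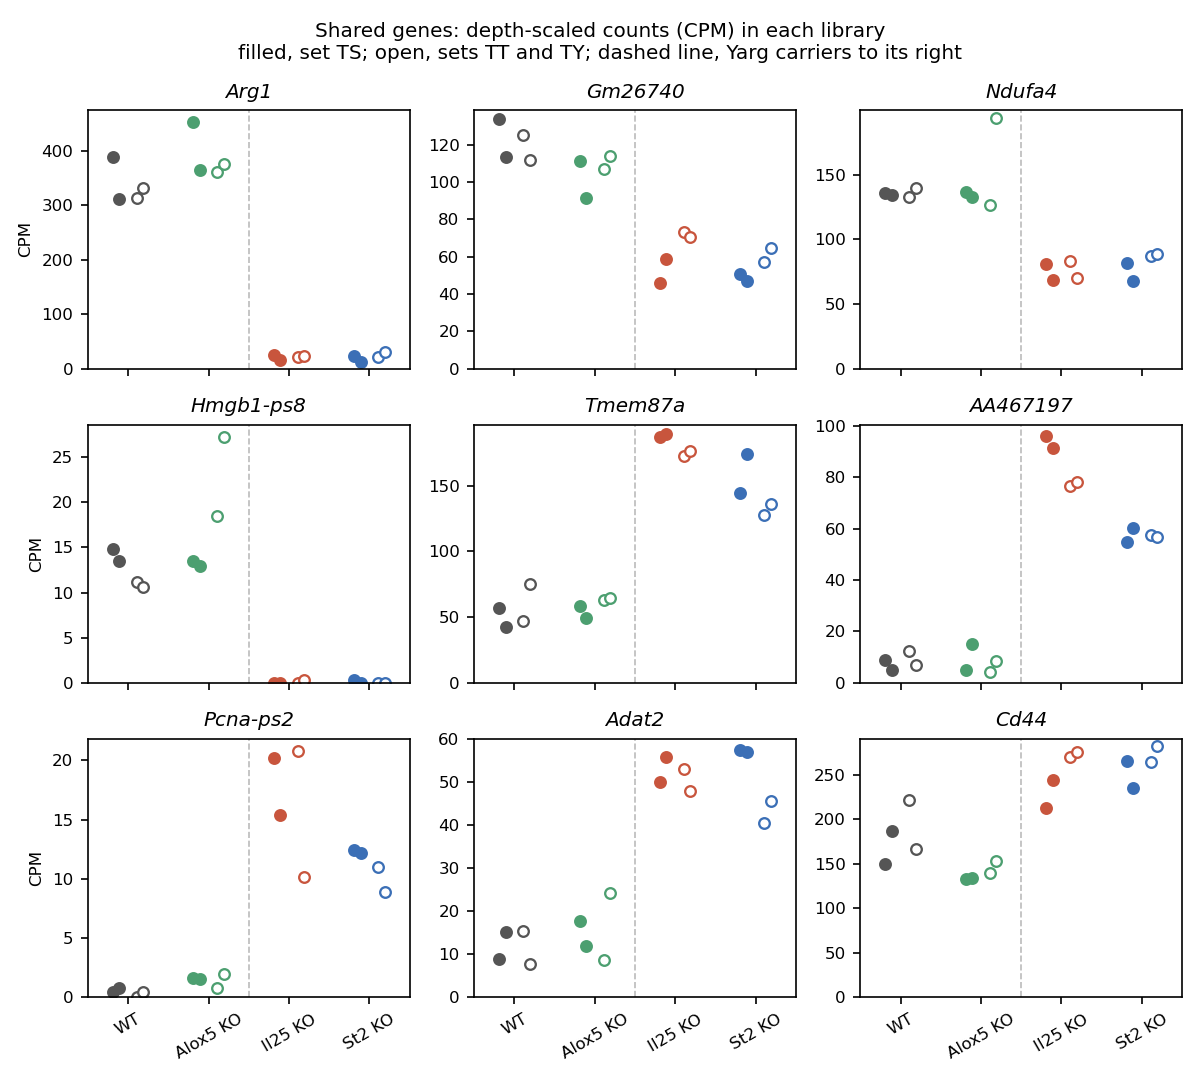
Depth-scaled counts (CPM, linear axes from 0) of the 9 shared genes, 1 point per library, by genotype, with filled points for set TS and open points for sets TT and TY, which did not enter the test. In each panel the filled carrier points to the right of the dashed line lie wholly above or below the filled non-carrier points, as with Arg1, at 12.5 to 24.5 CPM against 311 to 452 CPM.

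Each carrier genotype was also set against each non-carrier genotype. The number of genes called was 9 for Il25 KO minus WT (0.0753%), 12 for Il25 KO minus Alox5 KO (0.1%), 26 for St2 KO minus WT (0.217%) and 19 for St2 KO minus Alox5 KO (0.159%). Arg1, Tmem87a and AA467197 were called in all 4 pairs, though AA467197 only narrowly in St2 KO minus Alox5 KO (adjusted p = 0.0428), and leaving out WT 2, Alox5 KO 1, Alox5 KO 2 or St2 KO 2 cut these 3 genes to 1. Pairs that share no library allow lists to be compared. Il25 KO minus WT and St2 KO minus Alox5 KO shared Arg1, Tmem87a and AA467197, which is 3 of 9 and 3 of 19 called genes. Il25 KO minus Alox5 KO and St2 KO minus WT shared those 3 and Ctse, Ly6d and Iglv1, which is 6 of 12 and 6 of 26. These overlaps count genes called in both pairs, whatever the direction. Arg1, Tmem87a and AA467197 moved the same way in all 4 pairs. Direction was not compared for Ctse, Ly6d and Iglv1, so their overlap is not read as agreement. In these 2 pairs the medians of the B and plasma cell list had opposite signs. They were 3.11 in Il25 KO minus Alox5 KO and -1.78 in St2 KO minus WT. The part of such transcripts in this overlap was not tested. Ctse, Ly6d and Iglv1 are named because they were in the second overlap and were not called between carriers and non-carriers as a whole.

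The other 10 called genes were not shared. Of these, 6 genes, Nfkbia, Csf2, Zfp36, Nfkbid, Gadd45b and Cd69, were lower in St2 KO than in Il25 KO. Csf2, the cytokine GM-CSF, stood at 273 and 267 CPM in WT, 218 and 247 CPM in Alox5 KO, 209 and 249 CPM in Il25 KO and 50.8 and 76.2 CPM in St2 KO. Nfkbid, an inhibitor-like regulator of NF-kB, stood at 332 to 495 CPM in the non-carriers, 468 and 623 CPM in Il25 KO and 63.3 and 59.1 CPM in St2 KO. For both genes the Il25 KO libraries lay close to the non-carriers and the St2 KO libraries far below them. All 6 also differed between the 2 carrier genotypes, where 33 of all genes were called (0.276%), with Il25 KO higher than St2 KO (as in 0.209% of all genes) by log2 fold changes of 1.33 (Nfkbia) to 3.16 (Nfkbid). That count was 11 without St2 KO 1, 16 without St2 KO 2, 19 without Alox5 KO 1, 20 without Alox5 KO 2, 21 without WT 1 or WT 2, and 74 without Il25 KO 1. Another 3 genes had all 4 carriers below all 4 non-carriers, with the lowest levels in Il25 KO. The ribosomal protein gene Rpl26 stood at 46.3 to 51.2 CPM in the non-carriers, 5.05 and 6.53 CPM in Il25 KO and 35.4 and 36.9 CPM in St2 KO, and the carriers differed (adjusted p = 0.0250). The other two lie within 2 Mb of the Il25 gene, and their difference between the carriers missed the threshold. The transcript Gm43305 stood at 21.8 to 37.8 CPM in the non-carriers, 0.36 and 0.77 CPM in Il25 KO and 17.5 and 15.8 CPM in St2 KO (Il25 KO against St2 KO, adjusted p = 0.0574). The T cell receptor segment Trdv4 stood at 132 to 146 CPM, 57.7 and 71.5 CPM, and 112 and 105 CPM in the same order (adjusted p = 0.173). Alox5 was higher in carriers by 2.22 ± 0.336 (adjusted p = 0.0403) with the Alox5 KO libraries among the non-carriers, and its log2 fold change against WT alone was 0.37 (adjusted p = 0.873). Between the 2 non-carrier genotypes 3 genes were called (0.0251%). None of them was among the 19, of which 1 had an unadjusted p under 0.05 and 1, Alox5, was called by DESeq2. Csf2 lost its call in 4 of the 8 fits without a library, Zfp36 and Nfkbid in 5, Nfkbia and Gm43305 in 6, Gadd45b and Trdv4 in 7, and Rpl26, Cd69 and Alox5 in all 8.

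**Figure D2:**
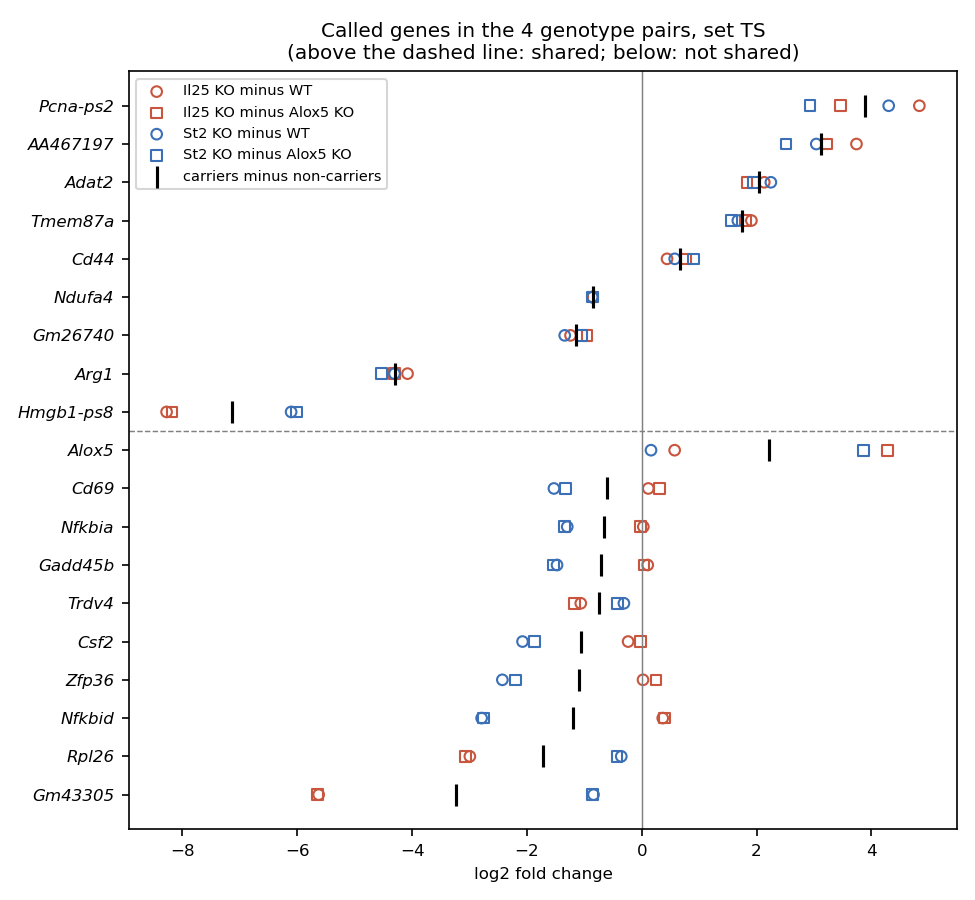
Log2 fold changes of the 19 called genes in the 4 genotype pairs (circles against WT, squares against Alox5 KO; red for Il25 KO, blue for St2 KO) and in the averaged contrast (black bar). Above the dashed line the 4 symbols lie on the same side of 0 at similar sizes, as the rule requires, and below it they spread more widely, as for Nfkbid, at -2.79 in St2 KO minus WT and 0.37 in Il25 KO minus WT.

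The share of genes called on chromosome 10, which holds Arg1, is given as a description, with no test. There 5 of 575 genes tested were called (0.87%), 4 of them shared, against 14 of 11369 on all other chromosomes (0.123%). Arg1, the gene for which this chromosome was chosen, is counted among the 5 and the 4. The chromosome 10 count was 1 without WT 1, WT 2, Alox5 KO 2, St2 KO 1 or St2 KO 2, and 2 without Alox5 KO 1 or Il25 KO 1. Within 12 Mb of Arg1, a distance chosen after the values were seen, 3 of 69 other genes were called (4.35%), 20.3% had carriers and non-carriers wholly apart (4.78% of all genes) and 33.3% had an unadjusted p under 0.05 (8.95% of all genes). On the rest of chromosome 10 the values were 1 of 505 called (0.198%), 5.54% apart and 8.91% with an unadjusted p under 0.05. The 3 genes called within 12 Mb were Gm26740, Hmgb1-ps8, which lies inside the span of Gm26740, and Adat2. Adat2 lies at -11.4 Mb, close to the edge of the window, and all 3 lie towards the start of the chromosome. Within 2 Mb of Arg1, 0 of 10 genes were called, 10% were apart and 30% had an unadjusted p under 0.05. The genes near Arg1 moved in both directions. The called gene far from it was Gadd45b, which was lower in St2 KO than in Il25 KO.

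The nearest called genes, Gm26740 and Hmgb1-ps8, lie on the same stretch, at -2.73 and -2.65 Mb from Arg1, where a minus sign means towards the start of the chromosome. They overlap H60b (ENSMUSG00000075297), which encodes a ligand of the activating receptor NKG2D and lies on the opposite strand. H60b, named after its values were seen, stood at 10.6 to 15.4 CPM in the non-carriers, 42.6 and 67.3 CPM in Il25 KO and 46.5 and 28.3 CPM in St2 KO, so it was apart in the other direction from Gm26740. It missed the threshold (log2 fold change 1.80 ± 0.300, adjusted p = 0.0789) and passed it with DESeq2 (adjusted p = 5.07e-05). It also passed in the edgeR fit of all 16 libraries with the sample code as a term (adjusted p = 0.00252). That fit adds no libraries to the contrast between sides, because TT and TY each hold 1 side only. Reads from these overlapping genes cannot be assigned by strand. Closest to Arg1 was Med23, a subunit of the Mediator complex, at -0.045 Mb, with a log2 fold change of 0.46 ± 0.134 (adjusted p = 0.439). Further out, and also named after the fact, Abracl (at -6.90 Mb) stood at 64.0 to 68.5 CPM in the non-carriers and 32.9 to 49.6 CPM in the carriers (log2 fold change -0.73 ± 0.156, adjusted p = 0.206), and Hivep2 (at -10.9 Mb), a zinc finger transcription factor, had a log2 fold change of 0.54 ± 0.125 (adjusted p = 0.247).

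**Figure D3:**
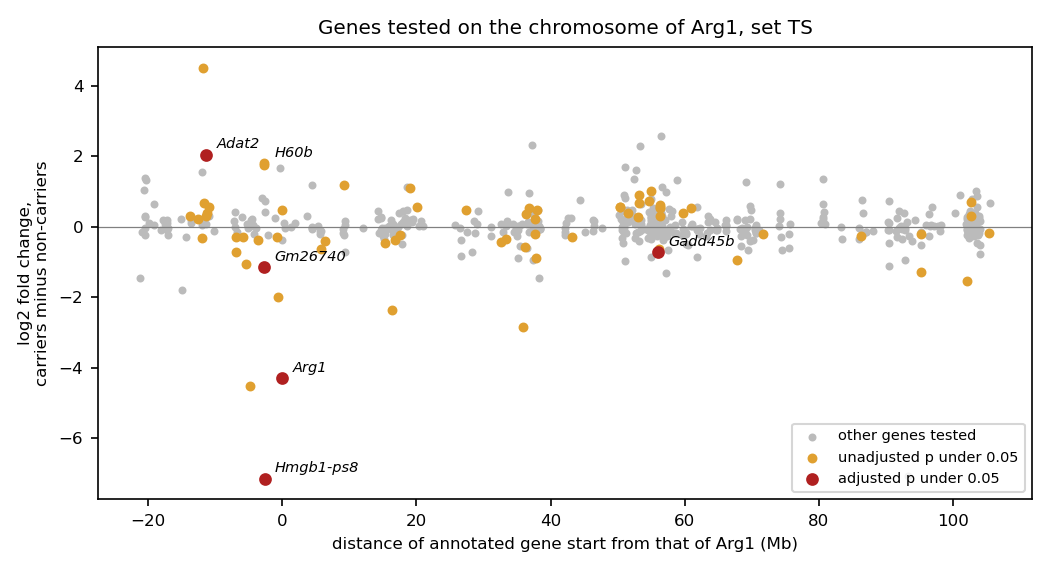
Log2 fold change between carriers and non-carriers of each gene tested on the chromosome of Arg1, against the distance of its annotated start from that of Arg1 in Mb. Red points passed an adjusted p of 0.05 and orange points an unadjusted p of 0.05, which 33.3% of the genes within 12 Mb of Arg1 and 8.91% of those farther away did.

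Chromosome 2 held 3 called genes of 902 (0.333%), all shared. Tmem87a and AA467197 begin at 120355312 and 122636986, and 2 genes near them that were not called had sides that did not overlap: the non-coding RNA 1700020I14Rik (start 119594297; 285 to 317 CPM in non-carriers, 160 to 256 CPM in carriers; log2 fold change -0.56 ± 0.107, adjusted p = 0.137) and Snap23, a component of the membrane fusion machinery (start 120567671; 160 to 185 CPM against 212 to 286 CPM; log2 fold change 0.42 ± 0.0951, adjusted p = 0.230). Of the 69 other genes within 3 Mb of Tmem87a, a window centred on a called gene, 1 was called (1.45%) and 10.1% were apart. Within 2 Mb 0 of 62 were called, and within 12 Mb 1 of 166 was (0.602%), with 7.23% apart. Over all genes 0.159% were called and 4.78% were apart. Of 78 genes within 12 Mb of Il1rl1, 0 were called by edgeR or DESeq2. There 5 had an unadjusted p under 0.05 (6.41%, beside 8.95% of all genes). Near Il25, 2 of 63 genes within 2 Mb were called (3.17%), Gm43305 and Trdv4, and 2 of 173 within 12 Mb (1.16%).

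The same genes were read in the 8 libraries of the other sample codes, TT (2 WT and 2 Alox5 KO) and TY (2 Il25 KO and 2 St2 KO). These did not enter the test, but there the sample code follows reporter status without exception, and so does sex: Xist, the RNA of the inactive X chromosome, had 982 to 1682 counts in TY and at most 7 in TT, and the Y-linked Ddx3y had at most 2 counts in TY and at least 709 in TT. Code, sex and reporter status cannot be told apart in them. All 8 TS libraries had at most 1 count of Xist. All 9 shared genes were apart between TY and TT in the direction seen in TS, where 7.18% of all genes were apart in either direction, and 2 of the 10 called genes that were not shared were (Csf2 and Rpl26). Arg1 stood at 312, 331, 360 and 375 CPM in TT and 21.6, 23.2, 22.04 and 31.0 CPM in TY. Tmem87a stood at 46.7 to 75.0 CPM in TT and 128 to 176 CPM in TY, and AA467197 at 4.33 to 12.3 CPM and 57.0 to 78.0 CPM. The levels of each of these 3 genes were close to those in TS.

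Over all 16 libraries 41 genes had 8 carriers wholly above or wholly below 8 non-carriers (0.343% of all genes), among them 8 of the 9 shared genes. The exception was Cd44, for which WT 3 (222 CPM) lay above Il25 KO 1 (212 CPM). Of the 572 genes apart in TS (4.78%), 79 were apart the same way between TY and TT, which is 13.8% of the TS list and 9.20% of the other, and 2 were apart the opposite way. H60b, 1700020I14Rik and Snap23 were among the genes apart over all 16 libraries, as were Ikzf2, the transcription factor Helios (309 to 368 CPM in TS non-carriers, 231 to 275 CPM in TS carriers), and Igtp, an interferon-induced GTPase (259 to 305 CPM against 193 to 213 CPM). None of these 5 was called in TS (adjusted p 0.0789 to 0.230), and all were named after their values were seen.

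Gene lists were read for changes that go beyond single genes. Of all 11958 genes tested, edgeR called 19 (0.159%) and DESeq2 67. In lists this small, 0 calls is therefore close to the share over all genes and no finding about the list. In the arginine and polyamine list Arg1 was the only called gene of 20 tested, and the median of the list, as a log2 fold change, was -0.06, beside 0.0037 over all genes tested. Odc1, which makes the polyamine putrescine from ornithine, had a log2 fold change of -0.35 ± 0.121 (adjusted p = 0.493), and Oat, which turns ornithine towards proline, of 0.19 ± 0.168 (adjusted p = 0.756). Of 17 genes that define ILC2, 0 were called by edgeR (median -0.06; 6 with an unadjusted p under 0.05; 2 called by DESeq2, Id2 and Klrg1). Of 33 receptors 0 were called by either tool, and of 21 lineage transcription factors 0 by edgeR and 1, Id2, by DESeq2, with 6 unadjusted p under 0.05 in each list. Gata3, the master transcription factor of ILC2, differed by 0.01 ± 0.0827. Klrg1, an inhibitory receptor of mature ILC2, named after its values were seen, stood at 520 to 560 CPM in non-carriers and 409 to 449 CPM in carriers, with a log2 fold change of -0.34 ± 0.0694 that missed the threshold (adjusted p = 0.183). Among 14 type 2 effectors 2 were called, Arg1 and Csf2, and 13 were below 0 (median -0.90). That median was -0.12 for Il25 KO and -1.28 for St2 KO against the mean of the non-carriers, so most of it lay in St2 KO. Il13, whose locus carries Smart13 in all 8 libraries, stood at 6.61 to 11.6 CPM in non-carriers and 1.52 to 8.46 CPM in carriers (log2 fold change -1.29 ± 0.507, adjusted p = 0.526).

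In several lists the medians of the 2 carrier genotypes were far apart, a description with no test of the difference between lists. Of 26 NF-kB targets 4 were called (0.159% of all genes), all lower: Nfkbia, Csf2, Nfkbid and Gadd45b. Csf2 is also counted among the type 2 effectors. The median of the NF-kB list was 0.20 in Il25 KO and -0.89 in St2 KO. For comparison, the medians over all genes tested were 0.01 and 0.02. Of 28 immediate early and dissociation-responsive genes 2 were called, Zfp36 and Cd69, both lower, with medians of 0.28 and -0.36. Tissue digestion is known to induce genes of this second list, and the part of handling in the difference was not tested. The median of 35 cell cycle genes was 0.09 in Il25 KO and 1.128 in St2 KO, where 8 of 35 were below 0, and edgeR and DESeq2 called 0 of them (3 unadjusted p under 0.05). The St2 KO median was 0.36 against WT alone and 1.17 against Alox5 KO alone, and that of Il25 KO was -0.15 and 0.14. Cell cycle genes with 0 counts numbered 11 in St2 KO 1 and 0 in St2 KO 2. The St2 KO libraries differed from each other in the summed level of that list, at 1435 CPM in St2 KO 1 and 2444 CPM in St2 KO 2 against 1322 to 1679 CPM in the non-carriers. The macrophage and dendritic list had medians of -0.16 in Il25 KO and -0.95 in St2 KO, and its summed level was lower in both St2 KO libraries (248 and 231 CPM) than in the other 6 (282 to 667 CPM). Its St2 KO median was -0.44 against WT alone and -1.46 against Alox5 KO alone, and that of Il25 KO was -0.04 and -0.45. The part of those cells in the lower levels of NF-kB targets and type 2 effectors in St2 KO was not tested.

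Some lists without any gene called by edgeR lay mostly below 0 in both carrier genotypes. Of all 11958 genes tested, 5805 were below 0 in Il25 KO and 5664 in St2 KO. In the interferon list 0 of 36 genes were called by edgeR or DESeq2, 32 were below 0 and 13 had an unadjusted p under 0.05 (8.95% of all genes). Its median was -0.24, and -0.21 in Il25 KO and -0.25 in St2 KO, and its summed level was 4029 to 4285 CPM in carriers and 4533 to 5224 CPM in non-carriers, with no overlap. In the list of mitochondrially encoded genes 0 of 7 were called by edgeR or DESeq2, and all 7 were below 0. All 7 had an unadjusted p under 0.05 (8.95% of all genes) and 6 were apart (4.78% of all genes). Their medians were -0.11 in Il25 KO and -0.39 in St2 KO, and the sum was 1808 to 2475 CPM in carriers and 2574 to 2710 CPM in non-carriers. In the list of MHC class I genes and NKG2D ligands 11 of 15 were below 0 in each carrier genotype, with medians of -0.06 in Il25 KO and -0.10 in St2 KO, and 0 were called by edgeR (2 unadjusted p under 0.05; H60b, which was higher in carriers, called by DESeq2). In the ILC1 and NK list 7 of 10 were below 0 in Il25 KO and 8 in St2 KO, with medians of -0.25 and -0.42. Of the 20 lipid, 21 unfolded protein response and 22 glycolysis genes 0 were called by either tool, with 5, 1 and 1 unadjusted p under 0.05.

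**Figure D4:**
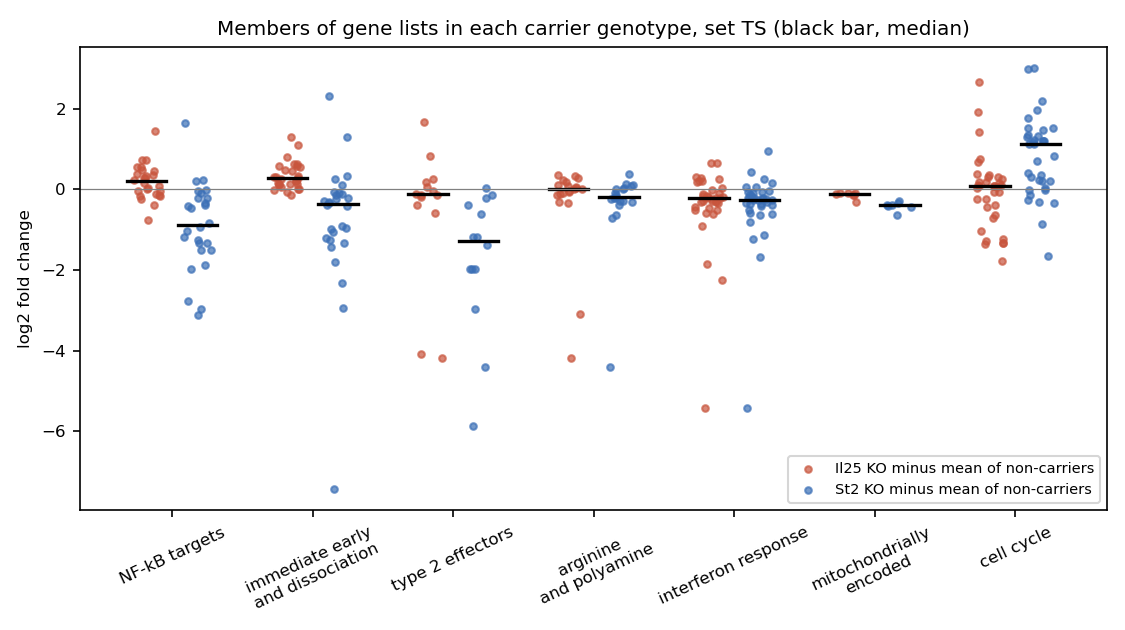
Log2 fold change of each tested member of 7 gene lists in Il25 KO (red) and St2 KO (blue) against the mean of the 2 non-carrier genotypes, with the list median as a black bar. The medians of NF-kB targets part, at 0.20 and -0.89, while those of interferon response genes lie close together, at -0.21 and -0.25.

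Transcripts of other cell types were read beside these results. In the ILC1 and NK list 0 of 10 genes were called by edgeR (5 with an unadjusted p under 0.05; Gzma and Klrb1b called by DESeq2). The summed level was 984 to 1244 CPM in carriers and 1252 to 1480 CPM in non-carriers. Klrb1b, a lectin-like receptor, stood at 70.0 to 82.9 CPM against 114 to 145 CPM (edgeR adjusted p = 0.119). That difference was not seen in the other sample codes, where Klrb1b stood at 80.67 to 106 CPM in TT and 85.25 to 117 CPM in TY. Klrg1, Abracl and Hivep2, also named after their values were seen, overlapped between TT and TY too. The B and plasma cell list had 0 of 15 called by edgeR (2 unadjusted p under 0.05; Cd79b called by DESeq2), with sums of 1043 to 2609 CPM in carriers and 995 to 3137 CPM in non-carriers, and the T cell list 0 of 11 (4 unadjusted; Cd28 called by DESeq2), at 763 to 1136 CPM and 833 to 875 CPM. Against the mean of the non-carriers, the medians of the B and plasma cell list were 1.53 in Il25 KO and -0.09 in St2 KO. They depended on the non-carrier genotype. Il25 KO had -0.20 against WT and 3.11 against Alox5 KO, and St2 KO had -1.78 and 0.32. Epithelial transcripts summed to 23.9 to 430 CPM in carriers, highest in Il25 KO 1, and 18.9 to 130 CPM in non-carriers (0 of 4 called by edgeR or DESeq2, 0 unadjusted). Macrophage and dendritic transcripts summed to 248 and 231 CPM in St2 KO, to 289 and 539 CPM in Il25 KO and to 282 to 667 CPM in non-carriers (0 of 7 called by edgeR or DESeq2, 2 unadjusted). The part of these other cells in the results above was not tested. In sorted bulk samples, fewer cells of a kind and less RNA per cell cannot be told apart.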

How the data were processed

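The authors deposited 1 table of raw counts per gene, without normalization. The submitters' processing notes name FastQC 0.11.3, Picard 1.134, HTSeq 0.4.1, STAR 2.4.2a and the build GRCm38, without settings or roles. Per the labels' protocols, libraries were made with Nextera XT, which does not keep the strand. Of 53471 rows, 6 repeated identifiers were dropped. Counts of the 8 TS libraries were tested with edgeR 4.0.16 in R 4.3.3 (filterByExpr over the 4 genotypes, TMM scaling, robust quasi-likelihood F test, 4 residual degrees of freedom, Benjamini-Hochberg adjustment at 0.05), and the contrast averaged the 2 genotypes of each side. SE is the log2 fold change divided by the square root of F. DESeq2 1.42.0 was an alternative, with others listed below. Positions are from GENCODE on GRCm38. Levels in TT and TY use a scaling over all 16 libraries. On simulated data for this comparison (11958 genes, 3 runs), the test found 53.1% of simulated 2-fold and 76% of 4-fold changes, with 5.54% false calls. Each run held more changed genes than were called in the data, so recovery in the data may be lower. The members, lists and tests were chosen with earlier results of these data known. Named genes were targeted or reporter genes, shared genes, the largest called genes that were not shared, called genes near Arg1, up to 4 called members per list and the 2 most abundant others per list; a part of the rule on genes correlated with Arg1 was not used, because Arg1 falls into 2 clusters of 4 libraries. Other genes fall outside this rule. Among them H60b, Abracl, Hivep2, Klrg1, 1700020I14Rik, Snap23, Ikzf2, Igtp and Klrb1b were named after their values were seen. Odc1, Oat, Gata3 and Med23 were also named outside the rule.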

Additional observations from a re-analysis of the deposited data

Results flagged for a closer look

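In 38 groups of 4 libraries (the 19 called genes on each side), 2 had an extreme library whose gap to the next exceeded Dixon's critical value, and chance flags about 1 group in 20. Among non-carriers, Rpl26 stood at 51.17 CPM in Alox5 KO 2 and at 46.3 CPM in each of the other 3. Among carriers, Hmgb1-ps8 stood at 0.34 CPM in St2 KO 1, which is 1 count, and at 0 counts in the other 3.

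For 7 of the 19 called genes, the 2 carrier genotypes differed from each other by the edgeR quasi-likelihood test, so the average over carriers describes neither. The log2 fold change of Il25 KO minus St2 KO was 1.3252 for Nfkbia (adjusted p = 0.000543), 1.8395 for Csf2 (0.00176), 2.4501 for Zfp36 (0.000543), 3.1551 for Nfkbid (0.000399), 1.5798 for Gadd45b (0.00176) and 1.6441 for Cd69 (0.000543). It was -2.6375 for Rpl26 (adjusted p = 0.0250), which was lower in Il25 KO.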

How the results depend on the processing

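With RLE size factors every count equalled the main one. With DESeq2, 67 genes were called between carriers and non-carriers, 29 shared, 98 within carriers, 19 within non-carriers and 5 in all 4 pairs. Without a filter on low counts, 11 were called, 20 within carriers and 3 on chromosome 10. The legacy mode of edgeR called 19 within carriers. Without genotype in the model 8 genes were called, all of them shared in the main result, and Cd44 was lost. All 16 libraries with code set as a term gave 34 called, 146 within carriers, 12 within non-carriers and 8 in all 4 pairs. In that fit the contrast between carriers and non-carriers still rests on TS. Chromosome 10 held 3 called genes, Arg1 among them, with WT alone as the non-carrier side. With Alox5 KO alone, 6 genes were called, 5 shared and 1 on chromosome 10. Without Alox5 KO 1, Alox5 KO 2 and St2 KO 1, the libraries low in plasma cell RNA (added after the data were seen), these counts were 1, 1 and 1. With 1 library left out, the ranges were 3 to 19 called, 3 to 11 shared, 11 to 74 within carriers, 0 to 14 within non-carriers, 1 to 3 in all 4 pairs and 1 to 7 on chromosome 10; a side then rests on 1 library of a genotype, assumed to vary like the others. Il1rl1 changed sign without Alox5 KO 1 (-0.09, adjusted p = 0.971) and without Il25 KO 2 (-0.10, adjusted p = 0.927), over a range up to 0.42 with other libraries left out. The cause of these changes was not tested.

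The replicate block, with the number of the titles as a term, called 18 genes, 8 of them shared, 26 within carriers and 5 on chromosome 10. Libraries of the same number correlated between -0.086 and 0.245 over the 6 pairs of genotypes (7084 genes). Whether libraries of the same number share more than that number was not tested.

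With 2511731 to 3216937 counts a library and 2 libraries per genotype, the test found 53.1% of simulated 2-fold and 76% of 4-fold changes between carriers and non-carriers, so many changes of 2-fold or less would be missed. The simulation held more changed genes than the 19 called in the data, and no differences between the genotypes of a side. Recovery in the data may therefore be lower.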
